A study of Mus musculus with 2 samples.

Results

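The 37 genes described here encode proteins that license, start and carry out DNA replication in S phase, supply its nucleotides, or control entry into it. They were chosen from a list of gene symbols, and each symbol matched 1 of the 54532 rows of the deposited expression table. The table comes from a study of asthma and of cell-in-cell structures, in which a living cell lies inside another. RNA sequencing was done in LA4 cells, a wild-type mouse line labelled as lung epithelium. In the group labelled as a co-culture, lymphocytes outnumbered the LA4 cells by 10 to 1. The labels leave the periods of co-culture unstated. The other group was a control, whose title also names lymphocytes but gives them no period together with the LA4 cells. Both groups are wild type, and the labels list 1 sample in each of the 2 groups and no drug or altered allele.

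A value column named for the cell line alone was read as the control group. The labels do not state this outright, and the title of the control names lymphocytes as well. The cell line's name also stands in the source field of both samples. Another 3 value columns have suffixes found in no label and were not analysed here, so no comparison between co-culture and control was made. The column holds the authors' mean FPKM, which is fragments per kilobase of gene length, scaled to the size of the library. Comparisons of level between genes therefore depend on the gene lengths used. For the listed genes other than Pola2, that length equalled all annotated exonic bases together, such as 11012 bases for Rrm1. The lengths of the transcripts present were not measured. The column's low values fall on the steps of whole reads from 3 libraries, numbered 1, 2 and 3 from the largest to the smallest effective size. The reads of each library could be recovered for all 37 genes. The effective library sizes, the numbers of reads by which the authors' scaling divides, were 15589461, 14389746 and 14350359. No source used here tells if they are separate cultures or repeat runs, so their values are given individually, with no SD and no p-value.

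The labelled cell type was checked against 6 epithelial and lung markers, and none of them reached 1 FPKM. Epcam, Krt18 and Nkx2-1 had 0 reads, and the highest, Krt8, was at 0.828 FPKM. The summed level of these markers was 0.947, 0.776 and 0.900 FPKM in libraries 1, 2 and 3. Of 9 lymphocyte markers none reached 1 FPKM either, and Ptprc, Cd3e, Cd3d and Ms4a1 had 0 reads. The summed level of the lymphocyte markers lay between 0.318 and 0.417 FPKM in the libraries, from 5, 6 and 7 reads in libraries 1, 2 and 3. In bulk RNA, fewer cells in S phase and less of these RNAs in each cell cannot be told apart.

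DNA is copied once per cell cycle. In G1 the origin recognition complex, Cdc6 and Cdt1 load the Mcm2 to Mcm7 ring onto DNA, and at the start of S phase Cdc45 and the GINS complex join the ring to make the active helicase. Polymerase alpha and primase begin each strand, the Rfc complex loads the Pcna clamp that holds the copying polymerases, and Fen1 and Lig1 finish the lagging strand. Many genes of this machinery are known targets of the E2F transcription factors, which are released from the retinoblastoma protein late in G1.

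The sequences around the annotated starts of some of these genes carry letters that E2F factors are known to bind. Windows of 300 bases (250 before and 50 after the start, RefSeq, GRCm38.p6) were given for 31 of the 37 genes, in 35 windows. The search used the words TTTCCCGC, TTTGGCGC, TTTCGCGC and TTTGCCGC on both strands. At least 1 word was found in 11 of the 31 genes (35.5%), against 2.60% of the 27025 genes with a window. The words were settled on after other spellings had been tried and values seen, so these shares are a description and not a test. Counted by window, 11 of the 35 member windows held a word, against 2.26% of all windows. The member windows were richer in G and C, with a median of 61.3% against 52.7% over all windows. Among the 8610 windows at or above the member median, 4.33% held a word. A match is a description of letters and not evidence of binding.

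Mcm5 and Mcm6 had overlapping words on opposite strands, so their sequence before the start is shown in full from base -190 to base -1. Capitals mark E2F words and CCAAT boxes, read on either strand. The Mcm5 stretch lies at chr8:75109319-75109508 on the plus strand, and the Mcm6 stretch at chr1:128359706-128359895 on the minus strand.
Mcm5: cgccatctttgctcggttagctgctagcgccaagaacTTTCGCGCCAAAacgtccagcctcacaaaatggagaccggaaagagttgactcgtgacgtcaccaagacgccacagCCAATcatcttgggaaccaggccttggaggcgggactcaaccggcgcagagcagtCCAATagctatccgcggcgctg
Mcm6: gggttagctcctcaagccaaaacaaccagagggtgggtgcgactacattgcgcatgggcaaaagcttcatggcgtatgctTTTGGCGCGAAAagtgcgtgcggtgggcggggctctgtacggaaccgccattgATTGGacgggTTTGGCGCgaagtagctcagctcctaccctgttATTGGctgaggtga

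The other genes with a word are shown by 1 site each, with the word in capitals and 10 bases on either side, to let the sites be compared across the steps of replication. Where a gene held several, the match whose first base lies nearest the start is shown.
Orc1 (chr4:108579417-108579444, plus strand): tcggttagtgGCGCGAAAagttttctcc
Cdc6 (chr11:98908003-98908030, plus strand): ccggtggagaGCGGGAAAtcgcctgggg
Cdt1 (chr8:122568037-122568064, plus strand): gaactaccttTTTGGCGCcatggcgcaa
Mcm3 (chr1:20820276-20820303, minus strand): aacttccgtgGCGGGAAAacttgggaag
Mcm7 (chr5:138171850-138171877, minus strand): ggtgacgacgTTTCGCGCcaatttcggt
Gins3 (chr8:95633508-95633535, plus strand): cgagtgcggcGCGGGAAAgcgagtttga
Pola1 (chrX:93632276-93632303, minus strand): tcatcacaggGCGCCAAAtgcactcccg
Rfc3 (chr5:151651191-151651218, minus strand): tttcgcgctcGCGGGAAAactctactgt
Lig1 (chr7:13278842-13278869, plus strand): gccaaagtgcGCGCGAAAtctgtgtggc

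These genes held 17 matches in all, counting overlapping ones separately, and 11 of them began before the start. The word TTTGCCGC was in none of the member windows. CCAAT boxes, searched as CCAAT on both strands, were in 17 of the 31 genes (54.8%) against 41.1% of all genes with a window. The GC box GGGCGG was in 24 (77.4%) against 38.2%, and TTTGAA, the letters of the cell cycle homology region, in 4 (12.9%) against 20.2%.

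**Figure D1:**
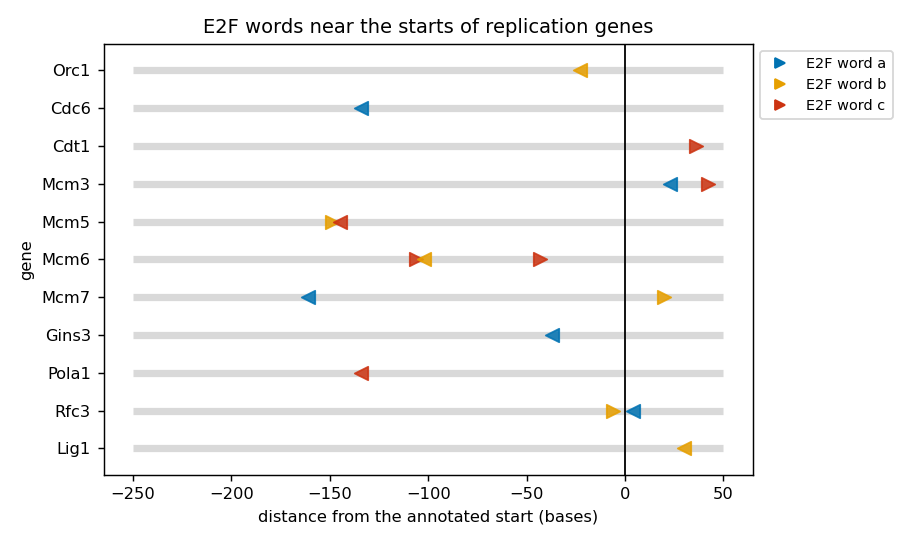
Positions of E2F words (x axis, bases from the annotated start, which is the black line) in the 11 replication genes that held any (rows), with word a TTTCCCGC, word b TTTCGCGC and word c TTTGGCGC. Right-pointing triangles match in the direction of the gene and left-pointing ones on the opposite strand, the grey bars are the windows searched, and 11 of the 17 matches begin before the start.

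In the control column, 32 of the 37 replication genes reached 1 FPKM (86.5%), against 20.5% of all genes in the table and 44.3% of the 22046 protein-coding genes. Their median level was 4.09 FPKM, and in libraries 1, 2 and 3 it was 3.84, 3.46 and 4.79 FPKM. The 32 genes were of modest abundance among expressed genes. Their median of 4.58 FPKM compares with 7.89 FPKM over the 11187 genes at 1 FPKM or more, a difference of -0.67 on the log2(FPKM + 1) scale. Between 23 and 3770 reads per gene, summed over the libraries, lie behind these levels, and the 5 genes under 1 FPKM (Ung, Fen1, Cdc6, Orc1 and Gins1) had 123 reads or fewer.

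**Figure D2:**
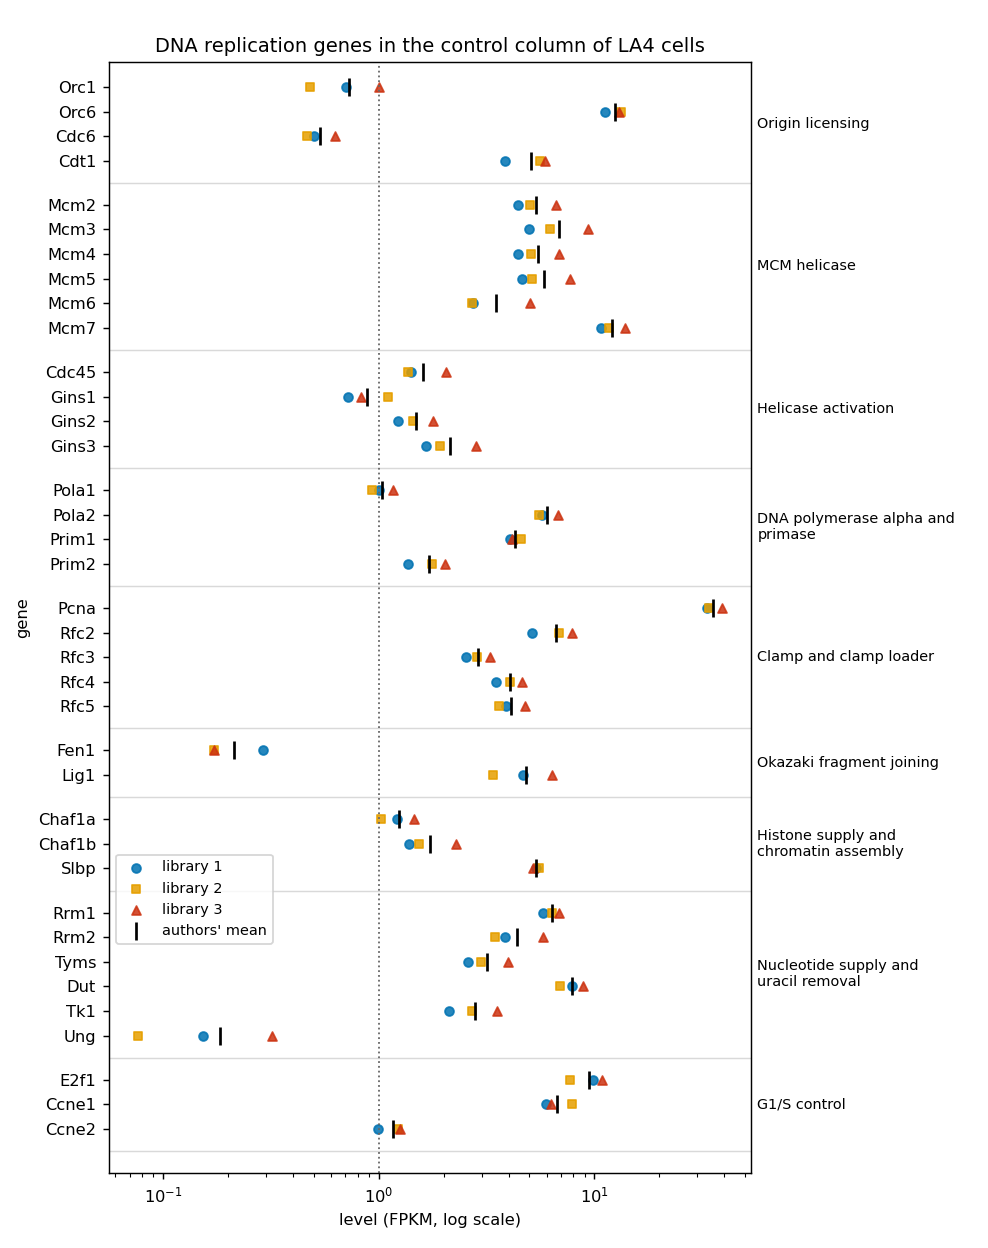
Level of each replication gene (rows, grouped by role) in FPKM on a log scale, with 1 coloured symbol for each library, a black tick for the authors' mean and a dotted line at 1 FPKM. Pcna stands highest at 35.5 FPKM, Ung and Fen1 lowest, and the triangles of library 3 lie to the right of the other libraries in most rows.

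The factors that license origins spanned a wide range of levels. Orc6, the smallest subunit of the origin recognition complex (mm10 chromosome 8, 85299632 to 85308278), was at 11.2, 13.3 and 13.01 FPKM in libraries 1, 2 and 3. Orc1, the subunit of that complex whose level changes with the cell cycle in mammalian cells, was at 0.701, 0.479 and 1.002 FPKM. Every library of Orc6 lay above every library of Orc1. Cdc6, the ATPase that helps to load the Mcm ring (chromosome 11, 98907801 to 98923940), was at 0.503, 0.465 and 0.626 FPKM, from 123 reads. Cdt1, its loading partner, was at 3.84, 5.58 and 5.88 FPKM. The authors' mean of Orc6 was 23.5 times that of Cdc6.

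The 6 subunits of the Mcm ring, which are present in equal numbers in the protein complex, lay between 3.49 FPKM for Mcm6 and 12.1 FPKM for Mcm7. All 6 were highest in library 3. Mcm3 (chromosome 1, 20802968 to 20820312) was at 4.98, 6.22 and 9.34 FPKM in libraries 1, 2 and 3. Mcm5 (chromosome 8, 75109569 to 75128439) was at 4.59, 5.13 and 7.70 FPKM, and Mcm6 (chromosome 1, 128331590 to 128359664) at 2.75, 2.70 and 5.02 FPKM. In these genes library 3 stood apart from the other libraries, which lay close together for Mcm5 and Mcm6.

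Mcm2 was at 4.43, 5.05 and 6.66 FPKM and Mcm4 at 4.42, 5.07 and 6.87 FPKM in libraries 1, 2 and 3. Mcm7, the most abundant subunit (chromosome 5, 138164583 to 138172422), was at 10.7, 11.7 and 13.9 FPKM. It is the only listed gene with an exon of another gene on its own strand, since its locus holds the microRNA genes Mir25 and Mir93. Those genes cover 3.89% of its exonic bases, and Ap4m1 and Cops6 on the other strand cover 8.70%. Of its 31-base words, read on either strand, 41.1% also occur in transcripts of other genes. Such shared words made up over 10% in 14 of the listed genes. How reads that fit several genes were counted is not given in the sources used here.

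The factors that turn the ring into an active helicase were lower. Cdc45, which binds the ring at the start of S phase (chromosome 16, 18780447 to 18811987), was at 1.41, 1.37 and 2.05 FPKM in libraries 1, 2 and 3. Gins3, a GINS subunit, was at 1.66, 1.92 and 2.83 FPKM. The GINS subunits Gins2 and Gins1 had mean levels of 1.48 and 0.882 FPKM. Gins4, the remaining subunit and not among the 37 genes, was at 24.5 FPKM. The 4 subunits of this complex were thus spread over a wider range than those of the Mcm ring.

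Among the genes that begin new strands, Pola2, the accessory subunit of polymerase alpha, was at 5.74, 5.52 and 6.77 FPKM in libraries 1, 2 and 3. Pola1, its catalytic subunit, was at 0.997, 0.930 and 1.16 FPKM. The deposited mean levels of the polymerase subunits lay 5.83 times apart, a value that depends on the gene length used for Pola2. That length is 2872 bases in the deposited table and 8294 exonic bases in the annotation used for the overlap checks, whereas the coordinates of the other 36 genes matched. Prim1, the catalytic primase subunit, was at 4.08, 4.56 and 4.16 FPKM, and Prim2, the large primase subunit, at 1.36, 1.77 and 2.02 FPKM.

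Pcna, the sliding clamp (chromosome 2, 132249162 to 132253314), was the most abundant of the 37 genes at 33.4, 34.2 and 39.0 FPKM in libraries 1, 2 and 3. It lay above 86.3% of the genes at 1 FPKM or more. Of its 31-base words 26.3% also occur in transcripts of other genes. The subunits of the clamp loader lay closer together, with means of 2.90 FPKM for Rfc3, 4.08 FPKM for Rfc4, 4.09 FPKM for Rfc5 and 6.63 FPKM for Rfc2. Rfc2 was at 5.13, 6.87 and 7.89 FPKM in the libraries, and Rfc5 at 3.87, 3.60 and 4.79 FPKM. The large subunit Rfc1, which is not among the 37 genes, was at 8.94 FPKM.

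Of the enzymes that join Okazaki fragments, Lig1, the replicative DNA ligase, was at 4.66, 3.40 and 6.38 FPKM in libraries 1, 2 and 3. Fen1, the flap endonuclease (chromosome 19, 10199132 to 10204169), was at 0.291, 0.172 and 0.173 FPKM, from 11, 6 and 6 reads. Its 23 reads carry an exact Poisson 95% interval of 14.6 to 34.5 reads, or 0.134 to 0.318 FPKM, which covers counting error only. Genes on the opposite strand, Tmem258 and Gm10143, share 84.2% of the exonic bases of Fen1. Whether the counting used strand is not given in the sources used here, so the level of Fen1 is uncertain, and the part of the overlap in it was not tested.

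Another 2 of the 37 genes shared over 50% of their exonic bases with a gene on the other strand. These were Gins2, which shares 67.3% with Gse1, and Chaf1a, which shares 52.5% with Ubxn6. With Fen1, the levels of these 3 genes ran from 0.212 to 1.48 FPKM. The 11 genes with a smaller overlap had a median of 4.09 FPKM, and the 23 with none had a median of 4.35 FPKM and ran from 0.182 to 35.5 FPKM. Of the genes under 1 FPKM, Ung, Cdc6 and Gins1 had no such overlap, while Fen1 and Orc1 had some. Of the 31-base words of Cdc6, 11.6% also occur in transcripts of other genes. The part of overlap in these levels was not tested.

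**Figure D3:**
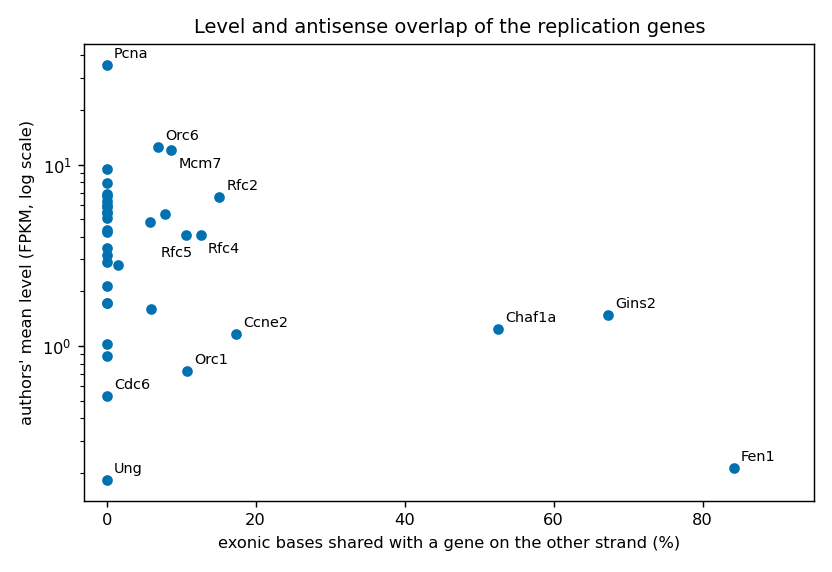
Authors' mean level of the 37 replication genes (y axis, FPKM, log scale) against the percent of their exonic bases that an exon of a gene on the other strand covers (x axis), 1 point a gene. Fen1, Gins2 and Chaf1a lie at over 50% and at or under 1.48 FPKM, while Ung and Cdc6 are low with no overlap.

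The chromatin genes of the list had low to moderate levels. Chaf1a and Chaf1b, subunits of the factor that places new histones behind the fork, had means of 1.24 and 1.74 FPKM. Chaf1b was at 1.38, 1.54 and 2.28 FPKM in libraries 1, 2 and 3. Slbp, which binds the stem-loop of replication-dependent histone mRNAs, was at 5.37, 5.52 and 5.18 FPKM. Its highest library was 1.07 times its lowest, the smallest ratio among the 37 genes, followed by Prim1 at 1.12 and Pcna at 1.17.

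Genes of nucleotide supply lay between 2.78 and 7.89 FPKM. Rrm1, the large subunit of ribonucleotide reductase, was at 5.75, 6.37 and 6.88 FPKM in libraries 1, 2 and 3. Rrm2, its small subunit, which in cycling cells is made mainly in S phase, was at 3.84, 3.46 and 5.76 FPKM. Tk1, the thymidine kinase, was at 2.11, 2.70 and 3.54 FPKM, and Tyms, the thymidylate synthase, at 2.59, 2.99 and 3.99 FPKM. All of these were highest in library 3. Dut, which keeps uracil out of DNA by degrading dUTP, was the highest of this group at 7.85, 6.95 and 8.88 FPKM.

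Ung, the glycosylase that removes uracil from DNA (chromosome 5, 114130386 to 114139323), was the lowest of the 37 genes, at 0.153, 0.0763 and 0.319 FPKM in libraries 1, 2 and 3. These values rest on 13, 6 and 25 reads. The highest library was 4.18 times the lowest, the largest ratio among the 37 genes, ahead of Orc1 at 2.09 and Mcm3 at 1.88. The counting interval of the library 3 to library 1 ratio of Ung ran from 1.03 to 4.45 (exact Clopper-Pearson, 95%, counting error only).

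E2f1, the transcription factor that drives many genes of this list, was at 9.86, 7.67 and 10.8 FPKM in libraries 1, 2 and 3. Ccne1, the cyclin that activates Cdk2 at the entry into S phase (chromosome 7, 38097984 to 38107534), was at 5.95, 7.86 and 6.28 FPKM. Ccne2, its relative, was at 0.991, 1.23 and 1.26 FPKM. E2f1 and Ccne2 were highest in library 3, while Ccne1 was highest in library 2. The counting intervals of the library 3 to library 1 ratio included 1 for E2f1 (0.968 to 1.25) and Ccne2 (0.867 to 1.86). Those of the Mcm genes lay above 1. Ccne2 had 62 and 63 reads in libraries 2 and 3.

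The replication genes differed between the libraries as a group, with library 3 highest and library 1 mostly lowest. They were chosen with a difference of S phase genes between these libraries already known, so the shares below describe it and do not test it. Of the 32 genes at 1 FPKM or more, 28 were highest in library 3, against 32% of 11025 such genes with recovered reads, and 1 (Slbp) was lowest there, against 30.1%. Library 1 was lowest in 21, against 34.6% of all genes, and highest in none, against 33.6%. Library 2 was highest in 4, against 34.4%, and lowest in 10, against 35.3%. Those 4 genes highest in library 2 were Ccne1, Prim1, Slbp and Orc6. On the log2(FPKM + 1) scale, library 3 exceeded the mean of its counterparts by a median of 0.29 over the 32 genes, against 0.0047 over all genes. For library 1 the median difference was -0.21, against -0.0019, and for library 2 -0.090, against 0.00064.

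**Figure D4:**
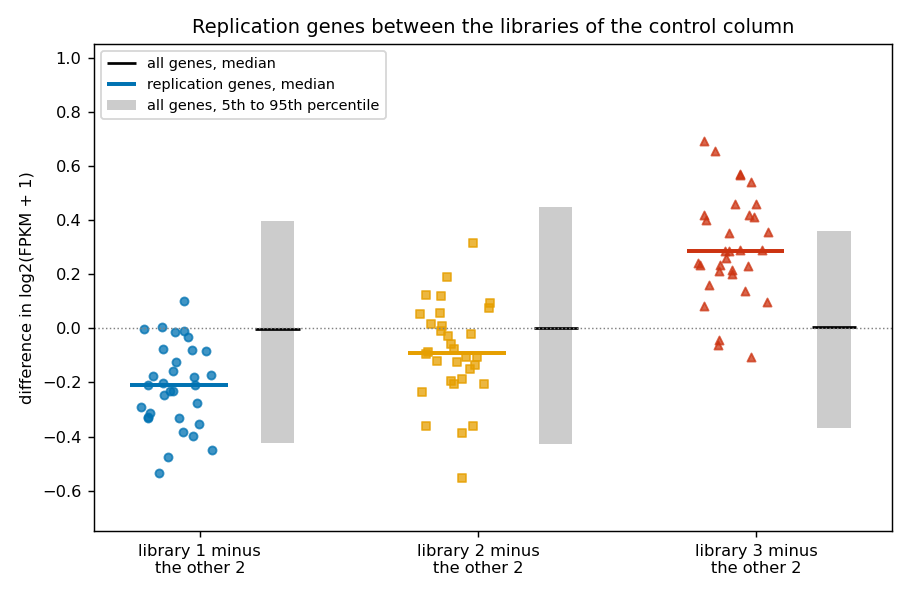
Difference of each library from the mean of the other 2 (y axis, log2(FPKM + 1)) for the 32 replication genes at 1 FPKM or more, 1 symbol a gene, with a coloured line at their median. Grey bars run from the 5th to the 95th percentile of 11025 genes and the black lines are their medians. The replication genes lie mostly above 0 in library 3 (median 0.29) and mostly below it in library 1 (median -0.21).

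The size of the difference varied among the 32 genes. In 17 of them library 3 was at 1.25 times the mean of the others or more, against 8.36% of all genes, and in none at 1/1.25 of it or less, against 10.7%. Library 1 was that far below in 14 genes, against 12.2%, and that far above in none, against 10.4%. Library 2 was that far below in 6 genes, against 12.1%, and that far above in 1 (Ccne1), against 11.2%. The counting interval of the library 3 to library 1 ratio lay above 1 in 22 genes, against 22.8% of all genes, and below 1 in none, against 21.2%. That of library 3 to library 2 lay above 1 in 20 genes, against 22.9%, and below 1 in 1, against 22.4%. That of library 2 to library 1 lay above 1 in 9 genes, against 24%, and below 1 in 2, against 24.5%. The ratio of library 3 to library 1 was 1.88 for Mcm3 (interval 1.62 to 2.18), 1.82 for Mcm6 (1.53 to 2.19), 1.71 for Gins3 (1.25 to 2.34) and 1.68 for Tk1 (1.38 to 2.05). It was 1.10 for E2f1 (0.968 to 1.25), 1.02 for Prim1 (0.849 to 1.23) and 0.965 for Slbp (0.848 to 1.10). In E2f1, Prim1 and Slbp no difference between libraries 3 and 1 was detectable at this depth. For E2f1 the ratio of library 2 to library 1 was 0.777 (0.675 to 0.894). These intervals compare libraries and not conditions.

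By role, with genes under 1 FPKM included, the median ratio of library 3 to library 1 was 1.62 for the Mcm ring, 1.46 for helicase activation and 1.52 for nucleotide supply and uracil removal. It was 1.34 for origin licensing, 1.29 for the clamp and its loader, 1.20 for histone supply and chromatin assembly, 1.17 for polymerase alpha and primase, and 1.10 for the genes of G1/S control. The pair that joins Okazaki fragments had a ratio of 1.37 for Lig1 and of 0.593 for Fen1, which had 23 reads in all. The 9 genes at 1 FPKM or more with an E2F word, among them Mcm3, Mcm5, Mcm6 and Mcm7, were all highest in library 3, with a median ratio of 1.53. The 18 with a window and no word had a median ratio of 1.20, and 14 of them were highest in library 3. The ranges of these groups overlapped, from 1.17 to 1.88 with a word and from 0.965 to 1.68 without. The 5 genes with no window had a median ratio of 1.48. The E2F words were settled on after other spellings had been tried and values seen, and a link between words and libraries was not tested.

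The reads recovered in libraries 1, 2 and 3 came to 10940221, 10050401 and 10104252, and 18352, 17867 and 18176 genes had reads in them. Library 1, where 21 of the 32 genes were lowest, thus had the most recovered reads. Of 7 housekeeping genes with recovered reads, library 3 was highest in 2, against 32% of all genes at 1 FPKM or more, and library 1 lowest in 5, against 34.6%. Their median difference was -0.021 for library 3 and -0.093 for library 1. The part of depth in the difference was not tested.

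Another 93 genes of the pathway were listed, and 92 matched a row of the table. The median of the 92 was 4.58 FPKM, and 78 were at 1 FPKM or more. Whole reads were recovered for 77 of those. Of the 77, 41 were highest in library 3, against 32% of all genes at 1 FPKM or more, and 43 lowest in library 1, against 34.6%. Their median difference was 0.058 for library 3 and -0.10 for library 1, beside 0.29 and -0.21 for the 32 genes above. By list, the median difference for library 3 was 0.20 in origin licensing and firing, 0.15 in chromatin assembly and 0.077 in the fork list. It was 0.036 in nucleotide supply, 0.021 in the checkpoint list and -0.0036 in G1/S control. All lists were chosen with the library difference of S phase genes known, and the difference between the lists was not tested.

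**Figure D5:**
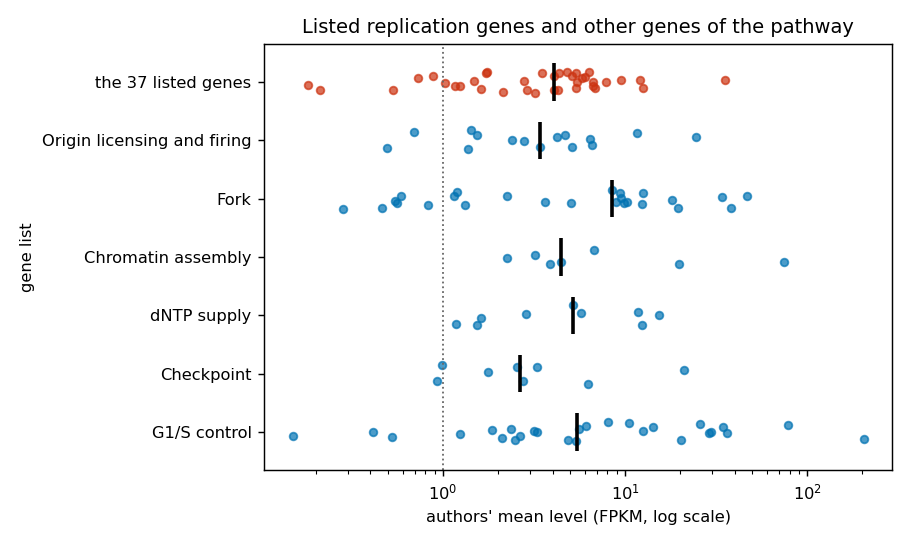
Authors' mean level (x axis, FPKM, log scale) of the 37 replication genes and of 6 lists of other genes of the pathway (rows), 1 point a gene, with a black line at each median over all genes of the list and a dotted line at 1 FPKM. Cdkn1c, at 0 reads, is not drawn. The 37 genes and the other lists cover overlapping ranges, with medians from 2.65 to 8.43 FPKM.

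Of 15 other genes of origin licensing and firing, 13 reached 1 FPKM (median 3.41 FPKM). Gins4, Mcmbp, which binds Mcm proteins, and Orc4 were highest at 24.5, 11.6 and 6.60 FPKM. Ticrr, needed to load Cdc45, was lowest at 0.491 FPKM, followed by Mcm10 at 0.696 FPKM and the helicase Recql4 at 1.37 FPKM.

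Of 25 other genes of the replication fork, 19 reached 1 FPKM (median 8.43 FPKM). Pold4, a small subunit of polymerase delta, was at 46.5 FPKM, Chtf8, a subunit of an alternative clamp loader, at 38.1 FPKM, and Rpa1, which coats single-stranded DNA, at 34.1 FPKM. The nuclease and helicase Dna2, the fork protein Wdhd1 and Dscc1, also of the alternative clamp loader, were lowest at 0.284, 0.461 and 0.546 FPKM. Pold4 and Chtf8 lay above all 37 replication genes, and Rpa1 lay above all of them except Pcna.

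All 7 other chromatin assembly genes reached 1 FPKM (median 4.45 FPKM). They ran from the histone chaperones Asf1b, Asf1a and Nasp at 2.26, 3.21 and 3.88 FPKM to the maintenance methyltransferase Dnmt1 at 6.70 FPKM and the histone-binding proteins Rbbp4 and Rbbp7 at 19.8 and 74.7 FPKM. All 9 other genes of nucleotide supply did so too (median 5.17 FPKM). The kinases Dtymk, Nme1 and Cmpk1 were highest at 15.4, 12.4 and 11.8 FPKM, and Shmt1 and Dck were near the low end at 1.53 and 1.61 FPKM.

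Regulators of the G1 to S step included the highest and the lowest levels of all these lists. Of 28 genes, 24 reached 1 FPKM (median 5.47 FPKM). Cdk4, the kinase that phosphorylates the retinoblastoma protein, was at 204.6 FPKM, Cdkn2b, an inhibitor of that kinase, at 78.5 FPKM, and the cyclin Ccnd2 at 36.4 FPKM. The lowest were E2f8 and E2f2 at 0.415 and 0.150 FPKM and the inhibitor Cdkn1c with 0 reads, which allows up to 0.0332 FPKM (3 reads over the 3 libraries). The kinase and its inhibitor were thus both above every one of the 37 genes. Of 8 checkpoint genes 6 reached 1 FPKM (median 2.65 FPKM), with Rad9a, Wee1 and Rad17 at 21.1, 6.27 and 3.27 FPKM and Chek1, Atr and Hus1 at 0.927, 0.989 and 1.77 FPKM.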

How the data were processed

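Per the labels' protocols, total RNA was purified on columns and sequenced after SMARTER mRNA-Seq library preparation. The authors deposited FPKM per gene with gene lengths, per the file headers, and, per the submitters' processing notes, used mm10. For the aligner, counter and strand handling, the sources used here give nothing. Another 3 value columns were not used.

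FPKM multiplied by gene length took 3 smallest steps, which gave the effective sizes of 3 libraries. Whole reads were accepted where exactly 1 combination gave the deposited value within a relative tolerance of 1e-14. This held for 21241 of 21403 genes above 0 (99.2%). The other 162 hold 29.5% of the length-weighted FPKM, and only their mean is given. None of 740 decoy values near those of the 37 genes had a solution. The search was tested on simulated data (5704 genes, 100% right), which left out genes above a set limit of FPKM multiplied by gene length.

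The 37 genes and all lists were chosen with earlier results of these data known, among them that S phase genes differed between these libraries. Every one of the 37 is named, with the 3 highest and 3 lowest of each other list and the 3 largest and 3 smallest library ratios, apart from genes that are not reported here. Role groups, ratio intervals, the 1.25-fold rule, counts by library, promoter words and overlap classes were added after values were seen, and the E2F words were settled on after other spellings had been tried. Housekeeping genes ran from Tbp at 2.52 FPKM to Actb at 2233 FPKM. Overlaps and 31-base words (1 in 4 positions) used GENCODE mouse release 21. Tools were matplotlib 3.10.9, numba 0.67.0, scipy 1.17.1, pandas 2.3.3, numpy 2.4.6 and Python 3.11.15.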

Additional observations from a re-analysis of the deposited data

How the results depend on the processing

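Of 54 values under alternative settings, 40 stayed within set limits, 12 moved further and 2 changed sign. The limit was 1 SD of the library medians for median levels, and 1.5 times for counts and differences. Rescaling to a fixed total (TPM) took the median of the 37 genes to 11.3 and that of the other pathway genes to 12.7, by construction, and the mean in place of the median gave 5.02 FPKM. At a threshold of 5 FPKM 15 of the 37 genes passed. The difference of -0.67 from all expressed genes was -0.43 with a pseudocount of 5 and 2.35 with no filter on low values, where genes at 0 enter the comparison. A pseudocount of 5 compressed the library differences to -0.11, -0.054 and 0.17 for libraries 1, 2 and 3. Leaving out each library in turn, the difference ranged from -0.33 to -0.13 for library 1, from -0.27 to 0.13 for library 2 and from 0.27 to 0.33 for library 3, so the sign for library 2 rests on library 3. The median of the 37 genes ranged from 3.74 to 4.36 FPKM, the number at 1 FPKM from 31 to 32 and the median of the other pathway genes from 4.27 to 4.602 FPKM. The 28 genes highest in library 3 and the 21 lowest in library 1 were as many under median-of-ratios and upper-quartile scaling, settings added after values were seen, and 31 and 22 with no filter on low values. Of the 11 genes with an E2F word, 8 held it before the start, and 9 held a word when only TTTGGCGC and TTTCGCGC were searched. No paired analysis was possible because a single column was mapped to a group. Depth limits genes with few reads such as Fen1 and Ung.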
